A study of Rattus norvegicus with 9 samples.

Results

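The nuclear genes of the 5 complexes of mitochondrial oxidative phosphorylation were examined in the tibias of rats with and without ovaries. Members were taken by gene symbol, as every gene of the Nduf, Sdh, Uqcr, Cox4 to Cox8 and Atp5 series in the deposited tables. This gave 80 symbols, of which 78 had any count and 2 (Cox7b2 and Cox8c) were listed at 0 in every rat. The 78 members were among 18423 genes with any count and 22589 genes listed, and they held 35 genes of complex I, 4 of complex II, 8 of complex III, 14 of complex IV and 17 of complex V.

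RNA was sequenced from whole left tibias of female Sprague-Dawley rats bought at 9 weeks of age, with 3 rats in each of 3 groups, and the bones were taken 24 weeks after an operation. RE/Ovx rats had both ovaries removed and then climbed a ladder for 12 weeks with a tail load that reached 100% of body weight. NE/Ovx rats had both ovaries removed and did not climb. Sham rats kept their ovaries, lost only a little fat beside them, and did not climb. The study asked how the loss of ovaries, as a model of osteoporosis after menopause, and resistance exercise after it change the bone. The whole tibia was used after skin, muscle, ligament and tendon had been taken off, so a library mixes RNA from bone, cartilage and marrow. Skeletal muscle transcripts were present as well, as described below. In such bulk RNA fewer cells of a type and less RNA per cell cannot be told apart. The total count of a library ran from 12967456 to 14946389 among RE/Ovx rats, 13568808 to 16671533 among NE/Ovx rats and 12297992 to 15123988 among Sham rats.

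Oxidative phosphorylation makes most of the ATP of a resting cell. Complex I takes electrons from NADH and complex II takes them from succinate, complex III passes them on to cytochrome c, and complex IV hands them to oxygen. Complexes I, III and IV pump protons across the inner membrane, and complex V lets the protons flow back and makes ATP. In bone, osteoclasts are known for their many mitochondria, osteoblasts use oxidative phosphorylation beside glycolysis, and red cell precursors of the marrow need mitochondria to make heme. A few subunits are encoded by mitochondrial DNA, and these were not analysed here.

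Both CPM and FPKM are used, CPM to compare a gene between rats and FPKM, which also divides by gene length, to compare levels between genes. CPM here divides a count by the library total after TMM scaling. Values of single rats stand in the order of rats 3, 5 and 8 (RE/Ovx), rats 6, 8 and 9 (NE/Ovx) and rats 7, 8 and 12 (Sham). The rat numbers do not pair the groups, and a mean is given with the SD of 3 rats. A log2 fold change is given with a standard error (SE) and the adjusted p from edgeR's quasi-likelihood test. That test gives no SE, so the SE was derived as the absolute log2 fold change divided by the square root of the test's F statistic.

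Most members were well measured. After edgeR's filter on low counts 14520 genes were tested, and 75 of the 78 members were among them. The tested members had a median of 44.2 FPKM over the 9 rats, against 9.0 FPKM for all tested genes, and 69 of the 75 were above 10 FPKM, against 46.9% of all tested genes. Atp5b, the catalytic beta subunit of complex V, was the highest with a mean of 384 FPKM. Cox6c, a small nuclear subunit of complex IV, had 219.8 FPKM, Cox4i1, which takes part in the control of complex IV by ATP, had 215 FPKM, and Atp5a1, the alpha subunit of complex V, had 211 FPKM. The highest members of the other complexes were Uqcrh, the hinge protein beside cytochrome c1 in complex III, with 124 FPKM, Ndufb9, a membrane-arm subunit of complex I, with 82.4 FPKM, and Sdhd, a membrane anchor of complex II, with 70.9 FPKM.

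**Figure D1:**
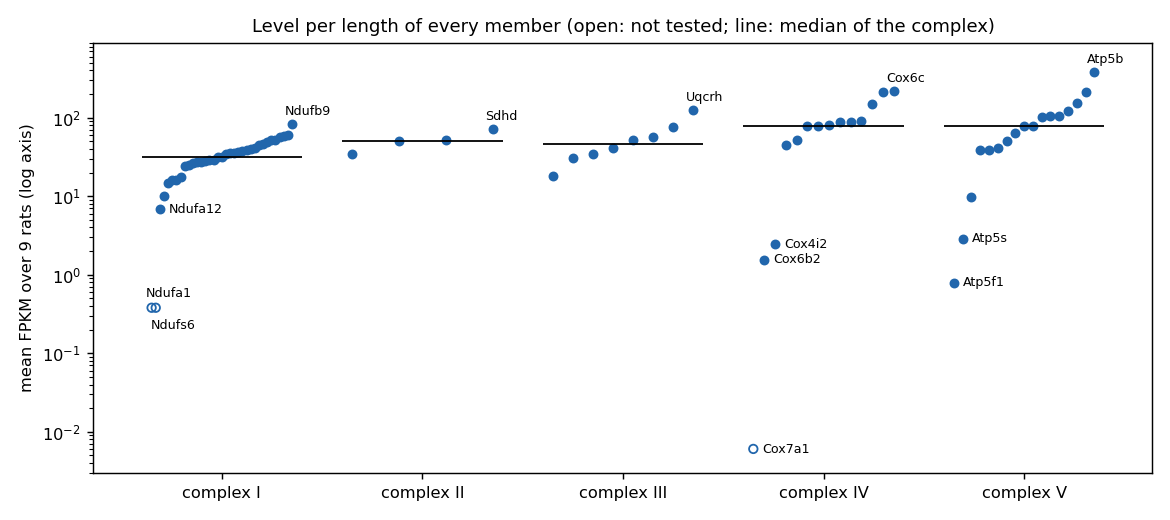
Mean FPKM over the 9 rats for each of the 78 members, on a log axis, by complex, with the median of each complex as a line and the 3 members that were not tested as open circles. Atp5b was the highest with 384 FPKM, and Cox7a1, Ndufa1, Ndufs6 and Atp5f1 lay below 1 FPKM.

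The summed FPKM of a complex gives its level per length. Complex V had 1528 ± 47.8 FPKM in RE/Ovx rats, 1549 ± 219 FPKM in NE/Ovx rats and 1692 ± 321 FPKM in Sham rats. Complex I had 1116 ± 45.4, 1148 ± 108 and 1225 ± 220.5 FPKM in the RE/Ovx, NE/Ovx and Sham groups, and complex IV had 1089 ± 29.3, 1170.4 ± 145 and 1312 ± 283 FPKM. Complex III had 412 ± 6.95, 426 ± 46.7 and 463 ± 57.7 FPKM, and complex II had 201 ± 5.03, 210.5 ± 12.6 and 207 ± 28.1 FPKM. The mean was lowest in RE/Ovx rats for each of the 5 complexes, and the groups overlapped in each pair except 1. For complex IV, RE/Ovx rats lay at 1055 to 1106 FPKM and below all Sham rats, which lay at 1136 to 1639 FPKM. The summed CPM of complex IV did not overlap either, at 562 to 579 CPM in RE/Ovx rats and 615 to 897 CPM in Sham rats. The mean log2 CPM of its members, centred on each gene's mean over all rats, did overlap. On that scale RE/Ovx rats, at -0.21 to -0.02, lay within the range of Sham rats, at -0.33 to 0.38. Sham rat 8 was the lowest of all rats there.

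Several members were listed far below their partners. Ndufa1 and Ndufs6, both subunits of complex I that a working enzyme needs, had 21 and 17 counts over the 9 rats, and Cox7a1, the heart and skeletal muscle form of a small subunit of complex IV, had 2 counts. These 3 were not tested. Atp5f1, subunit b of the stalk that holds complex V together, was tested with 126 counts and had 0.79 FPKM. The counting of reads shared with near-identical copies is not described, and 37 of the 78 members have at least 1 named pseudogene in the rat gene table used for names. Ndufa1 and Ndufs6 have 1 such pseudogene each, Atp5f1 has 3 and Cox7a1 has 0. The cause of these low counts was not tested, and the counts were not read as levels of the proteins' genes.

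Sham rat 7 stood apart from the other Sham rats in these genes. The mean level of the members, taken as log2 CPM centred on each gene's mean over the 9 rats, was -0.13, -0.02 and -0.08 in RE/Ovx rats, -0.01, -0.18 and 0.19 in NE/Ovx rats, and 0.40, -0.15 and -0.02 in Sham rats. Sham rat 7 was thus the highest of all 9 rats, NE/Ovx rat 9 came next, and the other 7 lay between -0.18 and -0.01. Sham rat 7 was highest in each of complexes I to V, with 0.41, 0.25, 0.33, 0.38 and 0.46, and NE/Ovx rat 9 was the next in each, with 0.15, 0.13, 0.16, 0.26 and 0.23. The summed level of the members was 3735 to 3963 CPM in RE/Ovx rats, 3572 to 4575 CPM in NE/Ovx rats and 3878 to 5429.6 CPM in Sham rats, so the groups overlapped.

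**Figure D2:**
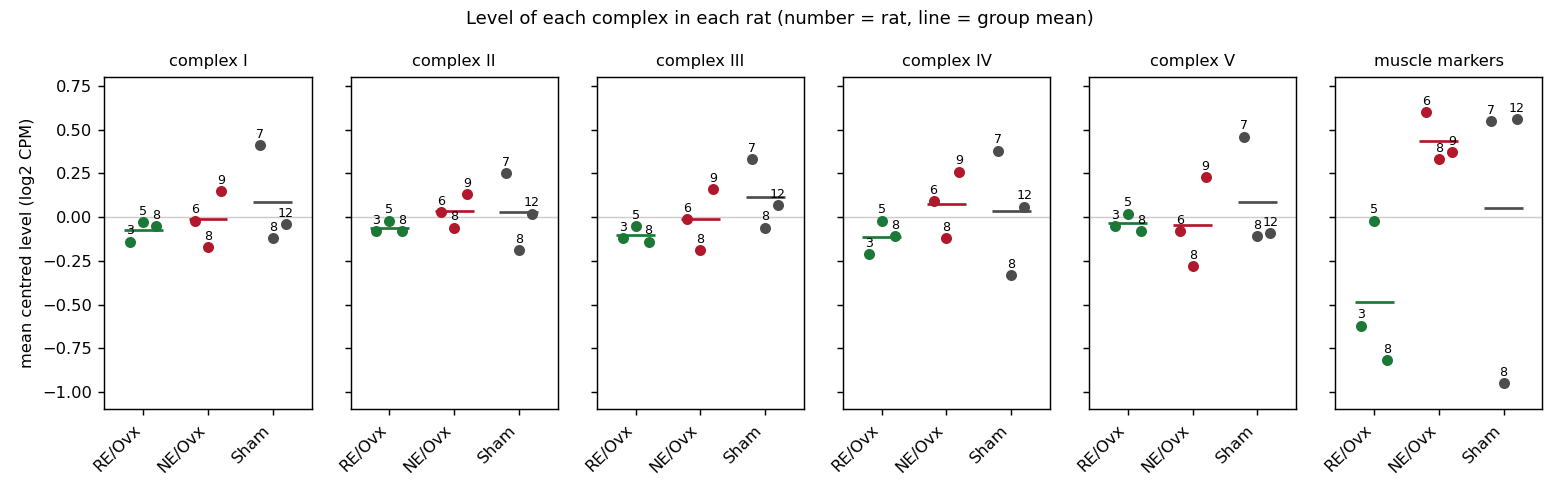
Mean centred level (log2 CPM) of the tested members of complexes I to V and of 32 skeletal muscle markers in each rat. Points are rats with their numbers, and lines are group means. Sham rat 7 is the highest rat in each complex, while in muscle markers Sham rat 8 and RE/Ovx rats 3 and 8 are the lowest.

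Markers of other cell types differed between the same groups. Summed erythroid markers (24 genes) ran from 42529 to 67275 CPM in RE/Ovx rats, 50239.5 to 64099 CPM in NE/Ovx rats and 70161 to 75624 CPM in Sham rats. In this sum Sham rats lay above both other groups. Their mean centred level overlapped, at -0.29 to 0.08 in RE/Ovx rats, -0.38 to 0.20 in NE/Ovx rats and 0.05 to 0.33 in Sham rats. Summed neutrophil markers (15 of 16 genes tested) were at 4897 to 7362 CPM, 6655 to 7548 CPM and 8555 to 14084 CPM in the RE/Ovx, NE/Ovx and Sham groups. Summed osteoclast markers (7 of 8 genes tested) overlapped, at 1237 to 2102 CPM, 1825 to 2072 CPM and 1315 to 1901 CPM. Osteoblast and osteocyte markers (13 of 14 genes tested) were at 18353 to 29087 CPM, 16426 to 26923 CPM and 6974 to 9844 CPM. On the mean centred level RE/Ovx rats, at 0.14 to 0.42, lay above Sham rats, at -0.74 to -0.13. NE/Ovx rats, at -0.35 to 0.39, overlapped with both on that scale. White adipocyte markers (19 genes) were at 1512 to 1668 CPM, 1143 to 1420.1 CPM and 708 to 956 CPM, B cell markers (15 genes) at 974 to 1192 CPM, 802 to 1254 CPM and 235 to 672 CPM, and cartilage markers (11 of 12 genes tested) at 2337 to 2592 CPM, 1783 to 2772 CPM and 807 to 1533 CPM, so for each of these lists Sham rats lay below both other groups. Megakaryocyte markers (11 of 12 genes tested) were at 1008 to 1196 CPM, 967 to 1144 CPM and 1178 to 1733 CPM. In this sum Sham rats lay above NE/Ovx rats and overlapped with RE/Ovx rats. On the mean centred level Sham rats, at -0.08 to 0.63, also overlapped with NE/Ovx rats, at -0.34 to -0.03. Interferon response genes (15 genes) overlapped, at 853 to 1844 CPM, 919 to 3127 CPM and 1173 to 1382 CPM, with NE/Ovx rat 6 the highest. The median log2 fold change for NE/Ovx compared with Sham was 1.38 for white adipocyte, 1.02 for cartilage, 0.97 for B cell and -0.52 for megakaryocyte markers. Of these markers 8, 2, 0 and 0 passed the adjusted threshold, against 1.23% of all tested genes. The median was 1.62 for interferon response genes, 0.49 for osteoblast and osteocyte, 0.10 for osteoclast, -0.36 for erythroid and -0.50 for neutrophil markers. Of these 0, 2, 0, 0 and 0 passed it. Their part in the levels of the oxidative phosphorylation genes was not tested.

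For NE/Ovx compared with Sham, which addresses the loss of ovaries, no member passed an adjusted p of 0.05 in edgeR. Over all tested genes 1.23% passed. The smallest adjusted p of a member was 0.114, and 3 members (4%) had an unadjusted p under 0.05 in edgeR against 20.5% of all tested genes. DESeq2 on the 9 libraries called 1 member, Cox5a, among 998 of 14520 genes that it called. The study's own thresholds, which ask for an unadjusted p under 0.05 and a fold change over 1.2 or under 0.83, were passed by 0 members higher and 3 lower (Cox5a, Cox6c and Atp5g3), against 11.3% of all tested genes higher and 6.52% lower. In 3 members (Cox5a, Uqcrb and Uqcrfs1) all NE/Ovx rats lay below all Sham rats and in none above, against 11.4% and 13.9% of all tested genes. The share of members past these limits was below that of all genes in both directions. The count at the study's thresholds was 1 when NE/Ovx rat 8 was left out, 11 when NE/Ovx rat 9 was, 8 when Sham rat 12 was and 7 when Sham rat 8 was. In the same order of fits, edgeR had 2250 of 14674, 2751 of 14692, 3073 of 14726 and 2553 of 14723 genes at an unadjusted p under 0.05. The share of all genes at the study's thresholds is not given for these fits.

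The fold changes of the members were small and mostly of 1 sign. Their median log2 fold change for NE/Ovx compared with Sham was -0.11, against 0.00 for all tested genes, and 62 of 75 (82.7%) were negative, against 49.6% of all. The medians of complexes I to V were -0.11, 0.01, -0.11, -0.15 and -0.10. The spread of the log2 fold changes between members was narrow, with an SD of 0.21 against 0.46 for all tested genes. The sign of the median rested on Sham rat 7, and without it the median of the members was 0.04.

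For RE/Ovx compared with NE/Ovx, which addresses exercise after ovariectomy, no member passed the adjusted threshold in edgeR, and neither did any other gene (0%). At an unadjusted p under 0.05 edgeR had 767 genes (5.28%), 3 of them members, while DESeq2 called 5 genes on the 9 libraries and 151 on these 6 rats unfiltered, among them Cox6a2 and Cox8b. The study's thresholds were passed by 0 members higher and 3 lower (Cox8b, Cox6a2 and Ndufb2), against 1.54% and 3.15% of all tested genes. RE/Ovx rats lay below all NE/Ovx rats in 5 members (Cox6a2, Cox8b, Ndufb2, Ndufs7 and Ndufv1) and above them in 0, against 6.84% and 4.75% of all tested genes, so the shares of lower members were close to those of all genes. The count at the study's thresholds was 0 without RE/Ovx rat 3 and 1 without RE/Ovx rat 8, NE/Ovx rat 6 or NE/Ovx rat 9. In the same order of fits, edgeR had 1084 of 14688, 576 of 14659, 505 of 14714 and 930 of 14692 genes at an unadjusted p under 0.05. The median of the members was -0.08 against 0.01 for all, 54 of 75 (72.0%) were negative against 48.2% of all, and the medians of complexes I to V were -0.07, -0.09, -0.10, -0.09 and -0.03. The median of the members was 0.04 without NE/Ovx rat 9 and 0.11 with the level of skeletal muscle markers as a covariate. That level did not overlap between RE/Ovx and NE/Ovx rats, so the covariate is confounded with the group in this comparison.

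For RE/Ovx compared with Sham, 1 member passed the adjusted threshold and was lower (Cox5a), against 8.06% of all tested genes in either direction. The study's thresholds were passed by 1 member higher (Atp5sl) and 7 lower (Cox5a, Cox6c, Cox8b, Cox4i1, Uqcrfs1, Atp5g3 and Ndufb2), against 14.0% and 9.17% of all tested genes. In 10 members all RE/Ovx rats lay below all Sham rats, namely Cox5a, Cox6c, Cox4i1, Uqcrfs1, Uqcrh, Uqcr10, Ndufb2, Ndufb8, Ndufb9 and Atp5g3, and in 1, Atp5sl, they lay above, against 13.0% and 14.9% of all tested genes. The shares of lower members were thus close to those of all genes. The count at the study's thresholds, both directions together, was 4 without RE/Ovx rat 3, RE/Ovx rat 8 or Sham rat 7 and 19 without Sham rat 8. In the same order of fits, edgeR had 4129 of 14688, 2627 of 14659, 3360 of 14695 and 3415 of 14723 genes at an unadjusted p under 0.05. The median of the members was -0.20 against -0.01 for all tested genes, 66 of 75 (88.0%) were negative against 51.1% of all, and the medians of complexes I to V were -0.20, -0.09, -0.23, -0.26 and -0.22. Without Sham rat 7 the median was -0.02, and without Sham rat 8 it was -0.30. Both comparisons with Sham share the same 3 Sham rats, and both comparisons of NE/Ovx rats share those rats, so the signs of the 3 comparisons are not independent.

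**Figure D3:**
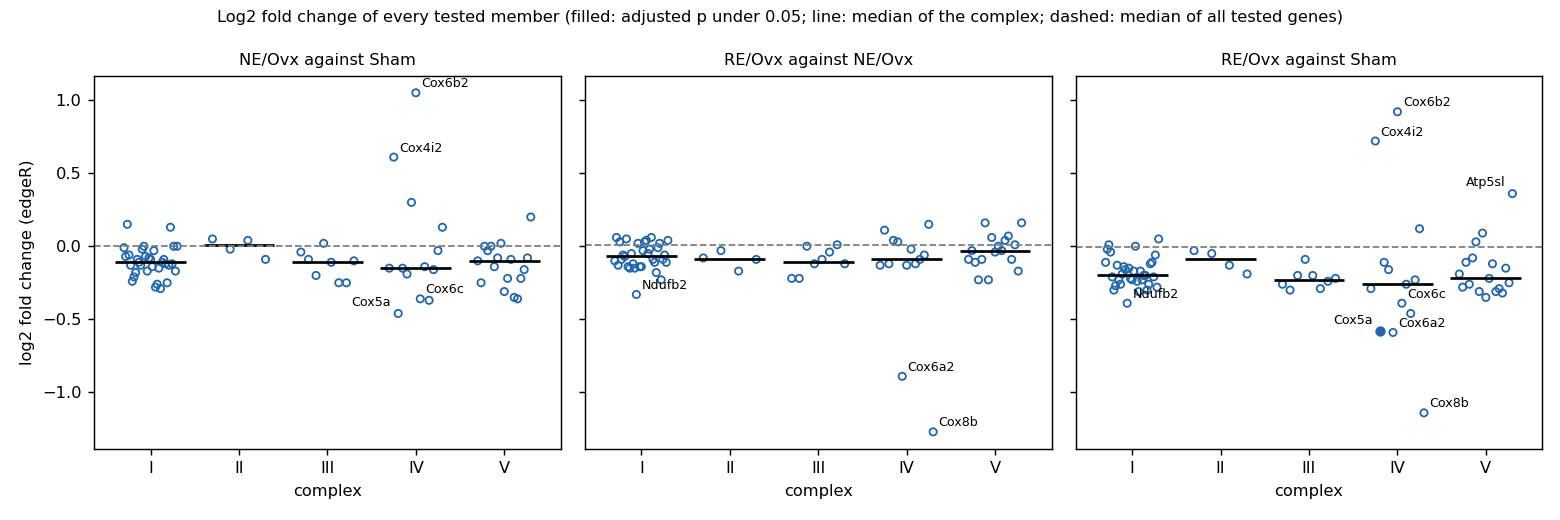
Log2 fold change from edgeR of each of the 75 tested members by complex in the 3 comparisons. Filled points have an adjusted p under 0.05 (Cox5a for RE/Ovx compared with Sham), short lines are the medians of the complexes, and the dashed line is the median of all tested genes. Most members lie slightly below the dashed line, and Cox6a2 and Cox8b lie far below the others for RE/Ovx compared with NE/Ovx.

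Complex I carried no member past the adjusted threshold, and 30 of its 33 tested members had a negative log2 fold change for NE/Ovx compared with Sham, 24 for RE/Ovx compared with NE/Ovx and 30 for RE/Ovx compared with Sham. Of all tested genes 49.6%, 48.2% and 51.1% were negative. Without Sham rat 7 the median of complex I for NE/Ovx compared with Sham was 0.05. Ndufb2, a membrane-arm subunit, was at 11, 14.7 and 14.9 CPM in RE/Ovx rats, 17.6, 16.5 and 16.9 CPM in NE/Ovx rats and 19.6, 16.8 and 16.9 CPM in Sham rats. All RE/Ovx rats lay below all other rats, with rat 3 the lowest. For Ndufb2 this gave a log2 fold change of -0.33 (SE 0.14, edgeR adjusted p = 0.924) for RE/Ovx compared with NE/Ovx and -0.39 (SE 0.14, edgeR adjusted p = 0.115) for RE/Ovx compared with Sham. Ndufb8, another membrane-arm subunit, had 33.8, 35.6 and 36.5 CPM in RE/Ovx rats, 30.0, 31.8 and 40.9 CPM in NE/Ovx rats and 45.7, 36.9 and 42.1 CPM in Sham rats. Its NE/Ovx and Sham rats overlapped through NE/Ovx rat 9 (log2 change of -0.28, SE 0.13, edgeR adjusted p = 0.266).

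None of the core subunits of complex I described next passed the study's thresholds. Ndufv1, which binds NADH and the flavin, was at 60.2, 59.8 and 59.5 CPM in RE/Ovx rats, 62.5, 60.8 and 63.8 CPM in NE/Ovx rats and 68.6, 53.3 and 65.7 CPM in Sham rats, so RE/Ovx rats lay below NE/Ovx rats by a small margin and within the range of Sham rats. Ndufs7, an iron-sulfur subunit close to the ubiquinone site, had 32.4, 33.9 and 27.5 CPM in RE/Ovx rats, 36.2, 34.7 and 39.1 CPM in NE/Ovx rats and 34.7, 29.2 and 37.1 CPM in Sham rats, with RE/Ovx rats below all NE/Ovx rats. Ndufs1, the largest iron-sulfur subunit, had 108, 108 and 105 CPM in RE/Ovx rats, 121, 99.9 and 121 CPM in NE/Ovx rats and 149.8, 103 and 115 CPM in Sham rats, with overlap between all groups. The iron-sulfur subunit Ndufv2 was at 46.5 to 48.1 CPM in RE/Ovx rats, 41.0 to 58.2 CPM in NE/Ovx rats and 46.3 to 71.6 CPM in Sham rats, and the groups overlapped. Ndufs3 had 24.4 to 27.7, 24.2 to 33.9 and 25.4 to 38 CPM in the same order of groups, and Ndufs8 had 13.0 to 18.7, 15.7 to 19.4 and 16.2 to 23.9 CPM, also with overlap. Ndufa4, which the rule places here by its name and which is now counted with complex IV, had 30.0 to 33.9, 28.9 to 41.2 and 29.3 to 54.0 CPM. Ndufa12, the lowest tested member of complex I with 6.77 FPKM, had 3.23 to 4.24, 1.87 to 5.45 and 2.25 to 5.36 CPM.

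Complex II, which is also an enzyme of the citrate cycle and has no subunit from mitochondrial DNA, had no member past either set of thresholds. Its median was the closest to 0 of the 5 complexes in both comparisons with Sham but not for RE/Ovx compared with NE/Ovx. There all 4 members were negative, against 48.2% of all tested genes. Sdha, the flavoprotein that oxidizes succinate, was at 108, 118 and 108 CPM in RE/Ovx rats, 113, 116 and 124 CPM in NE/Ovx rats and 135, 99.4 and 105 CPM in Sham rats. Sdhb, its iron-sulfur partner, was at 44.9 to 53.6 CPM, 46.7 to 56.7 CPM and 40.5 to 57.8 CPM in the RE/Ovx, NE/Ovx and Sham groups. Groups of both genes overlapped in each comparison. The membrane anchors Sdhc and Sdhd overlapped too. Sdhc was at 40.8, 37.4 and 40.0 CPM in RE/Ovx rats against 47.9, 40.7 and 44.8 CPM in NE/Ovx rats (log2 fold change -0.17, SE 0.12, edgeR adjusted p = 0.968). Sdhd was at 83.8, 82.6 and 77.2 CPM in RE/Ovx rats, 87.8, 77.5 and 94.8 CPM in NE/Ovx rats and 104, 79.1 and 93.9 CPM in Sham rats. Sdhd had a log2 fold change of -0.19 (SE 0.12, edgeR adjusted p = 0.341) for RE/Ovx compared with Sham and -0.09 (SE 0.11, edgeR adjusted p = 0.686) for NE/Ovx compared with Sham.

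In complex III all 8 members were tested, and 7 had a negative log2 fold change for NE/Ovx compared with Sham, 7 for RE/Ovx compared with NE/Ovx and 8 for RE/Ovx compared with Sham. Of all tested genes 49.6%, 48.2% and 51.1% were negative. Without Sham rat 7 the median of complex III for NE/Ovx compared with Sham was -0.01. Uqcrfs1, the Rieske iron-sulfur protein, was at 83.4, 75.8 and 71.4 CPM in RE/Ovx rats, 82.4, 70.3 and 84.5 CPM in NE/Ovx rats and 108, 86.5 and 87.1 CPM in Sham rats. Both ovariectomized groups lay below all Sham rats and overlapped with each other. The log2 fold change was -0.29 (SE 0.12, edgeR adjusted p = 0.151) for RE/Ovx compared with Sham and -0.25 (SE 0.12, edgeR adjusted p = 0.261) for NE/Ovx compared with Sham. Uqcr10, a small subunit, had 13.9, 13.0 and 13.5 CPM in RE/Ovx rats, 16.4, 13.8 and 16.7 CPM in NE/Ovx rats and 18, 14.3 and 16.1 CPM in Sham rats. RE/Ovx rats lay below Sham rats and overlapped with NE/Ovx rat 8 (log2 fold change against NE/Ovx -0.22, SE 0.13, edgeR adjusted p = 0.968). Uqcrb, which binds ubiquinone, had 26.6, 37.8 and 27.9 CPM in RE/Ovx rats, 31.3, 29.3 and 31.6 CPM in NE/Ovx rats and 37.0, 34.7 and 34.1 CPM in Sham rats. NE/Ovx rats lay below Sham rats, whereas RE/Ovx rat 5 was the highest of all. The core proteins overlapped, with Uqcrc1 at 75.6 to 79.6, 74.5 to 92.1 and 73.3 to 99.1 CPM and Uqcrc2 at 92.7 to 101, 89.0 to 119 and 90.5 to 132 CPM in the RE/Ovx, NE/Ovx and Sham groups. Uqcrq, the lowest member with 17.9 FPKM, was at 24.5 to 27.4, 24.1 to 35.5 and 24.6 to 38.6 CPM.

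Cox5a of complex IV was the 1 member past the adjusted threshold. It encodes a nuclear subunit on the matrix side of the enzyme. It was at 80.7, 70.9 and 77.2 CPM in RE/Ovx rats, 82.7, 77.7 and 88.2 CPM in NE/Ovx rats and 139, 109 and 92.7 CPM in Sham rats. Both ovariectomized groups lay below all Sham rats, the Sham rats differed from each other more than the other groups did, and RE/Ovx and NE/Ovx rats overlapped. Cox5a fell by 0.58 on the log2 scale for RE/Ovx compared with Sham (SE 0.14, edgeR adjusted p = 0.0339). For NE/Ovx compared with Sham the log2 fold change was -0.46 (SE 0.14, edgeR adjusted p = 0.114), and for RE/Ovx compared with NE/Ovx it was -0.12 (SE 0.14, edgeR adjusted p = 0.977). The call for RE/Ovx compared with Sham was lost without RE/Ovx rat 5 (adjusted p = 0.136), RE/Ovx rat 8 (adjusted p = 0.108), Sham rat 7 (adjusted p = 0.0697) or Sham rat 8 (adjusted p = 0.0577), with edgeR on the 2 groups alone (adjusted p = 0.0657), with limma on FPKM (adjusted p from 0.0604 to 0.0903) and with the level of skeletal muscle markers as a covariate (adjusted p = 0.0751). Its fold change was negative under each of these settings.

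The other general subunits of complex IV did not pass the adjusted threshold. Cox6c was at 87.5, 92.6 and 88.8 CPM in RE/Ovx rats, 86.8, 80.2 and 107 CPM in NE/Ovx rats and 142, 106 and 103 CPM in Sham rats. RE/Ovx rats lay below all Sham rats, and NE/Ovx rat 9 lay above Sham rats 8 and 12. Cox6c had a log2 fold change of -0.39 (SE 0.14, edgeR adjusted p = 0.117) for RE/Ovx compared with Sham and -0.36 (SE 0.14, edgeR adjusted p = 0.185) for NE/Ovx compared with Sham. Cox4i1 was at 140.5, 133 and 135 CPM in RE/Ovx rats, 149, 132 and 166 CPM in NE/Ovx rats and 196, 149.8 and 152 CPM in Sham rats, so that RE/Ovx rats lay below Sham rats and NE/Ovx rats spanned both. Cox5b, which holds a zinc ion, overlapped between groups with 40.0 to 45.5, 37.0 to 46.5 and 39.0 to 58.0 CPM. The small subunits Cox7a2 and Cox7b overlapped as well, with 33.4 to 36.6, 30.1 to 45.6 and 34.3 to 56.7 CPM for Cox7a2 and 30.5 to 39.9, 26.9 to 43.0 and 36.0 to 71.8 CPM for Cox7b, each with Sham rat 7 at the top.

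Complex IV has tissue forms of several subunits, and the promoters of the muscle forms Cox6a2 and Cox8b are shown because these genes lay apart between RE/Ovx and NE/Ovx rats. Beside them stand 3 general subunits, Cox8a as the partner of Cox8b, and Cox4i1 and Cox5a, which are partners of neither. Cox6a1, the partner of Cox6a2, is not shown. Cox6a2 and Cox8b are the forms of heart and skeletal muscle, and Cox8b is also used in rodent brown fat. Cox6a1, Cox8a and Cox4i1 are the general forms. The 150 bases before the start site are given from RefSeq on GRCr8, read 5′ to 3′ on the strand of the gene. Capitals mark matches on either strand to CAGCTG, an E-box of the kind bound by MyoD, to CTAAAAATA, a core of MEF2 sites, or to CCGGAAGT, a site of GABPA and other ETS factors, whose reverse complement reads ACTTCCGG. The motifs do not overlap in these windows. Cox6a2 (chr1:192219717-192219866, minus strand), Cox8b (chr1:205408274-205408423, minus strand), Cox8a (chr1:213833624-213833773, minus strand), Cox4i1 (chr19:65630233-65630382, plus strand) and Cox5a (chr8:66818134-66818283, plus strand) read:
Cox6a2: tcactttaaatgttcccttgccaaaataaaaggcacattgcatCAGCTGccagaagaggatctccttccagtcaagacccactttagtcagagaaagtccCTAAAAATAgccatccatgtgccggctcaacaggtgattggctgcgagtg
Cox8b: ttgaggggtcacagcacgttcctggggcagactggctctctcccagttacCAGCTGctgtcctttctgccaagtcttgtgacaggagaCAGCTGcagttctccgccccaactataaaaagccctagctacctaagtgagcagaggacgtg
Cox8a: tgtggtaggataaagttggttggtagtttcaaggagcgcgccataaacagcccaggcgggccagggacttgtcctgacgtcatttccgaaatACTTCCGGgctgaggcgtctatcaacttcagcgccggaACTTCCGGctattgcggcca
Cox4i1: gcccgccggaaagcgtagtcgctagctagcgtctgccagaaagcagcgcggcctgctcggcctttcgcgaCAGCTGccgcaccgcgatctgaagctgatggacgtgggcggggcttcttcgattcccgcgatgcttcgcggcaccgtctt
Cox5a: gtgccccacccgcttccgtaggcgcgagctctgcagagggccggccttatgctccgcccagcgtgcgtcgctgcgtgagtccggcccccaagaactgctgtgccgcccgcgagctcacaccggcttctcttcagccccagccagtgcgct

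The windows of the 2 muscle forms were poor in CpG, with 2 in Cox6a2 and 3 in Cox8b against 11 in Cox8a, 21 in Cox4i1 and 16 in Cox5a. Over the full 300 bases from 250 before to 50 after the start, 68 of the 78 members had a promoter in the RefSeq table. They had a median of 20 CpG, against 7 for all 33469 promoters. CGCANGCG, the core of NRF1 sites, was in 22 of the 68 (32.4%), against 7.6% of all promoters, AAGATGGCG of YY1 was in 10 (14.7%) against 1.73%, and CCGGAAGT was in 7 (10.3%) against 3.81%. TCAAGGTCA of the estrogen-related receptors was in 2 (Atp5g3 and Sdhd, 2.94%) against 0.433%. CAGCTG was in 11 (16.2%) against 15.1%, and CTAAAAATA was in 1 (Cox6a2, 1.47%) against 0.511%. A match is a run of letters and was not tested as a binding site.

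The muscle forms Cox6a2 and Cox8b had the largest fold changes of any member for RE/Ovx compared with NE/Ovx. Cox6a2 was at 16.8, 24.5 and 15.7 CPM in RE/Ovx rats, 36.0, 29.7 and 39.3 CPM in NE/Ovx rats and 38.5, 10.7 and 35.8 CPM in Sham rats. RE/Ovx rats lay below all NE/Ovx rats, and Sham rat 8 was the lowest of all 9. Its log2 fold change was -0.89 (SE 0.38, edgeR adjusted p = 0.924) for RE/Ovx compared with NE/Ovx, -0.59 (SE 0.38, edgeR adjusted p = 0.375) for RE/Ovx compared with Sham and 0.30 (SE 0.38, edgeR adjusted p = 0.690) for NE/Ovx compared with Sham. Cox8b was at 7.40, 11.6 and 4.43 CPM in RE/Ovx rats, 20.2, 15.1 and 20.8 CPM in NE/Ovx rats and 22.4, 6.04 and 23.0 CPM in Sham rats. RE/Ovx rats again lay below all NE/Ovx rats, with RE/Ovx rat 8 the lowest of all 9 and Sham rat 8 the next. Its log2 fold change was -1.27 (SE 0.46, edgeR adjusted p = 0.921) for RE/Ovx compared with NE/Ovx, -1.14 (SE 0.46, edgeR adjusted p = 0.154) for RE/Ovx compared with Sham and 0.13 (SE 0.44, edgeR adjusted p = 0.900) for NE/Ovx compared with Sham. Without Sham rat 8 both passed the adjusted threshold in edgeR for RE/Ovx compared with Sham, with -0.97 (adjusted p = 0.028) for Cox6a2 and -1.54 (adjusted p = 0.0285) for Cox8b. In that fit 847 of 14723 genes passed it. Over the fits that left out a single RE/Ovx or Sham rat, the edgeR adjusted p reached 0.708 for Cox6a2 and 0.408 for Cox8b.

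The general partners did not follow. Cox6a1 was at 46.9, 49.5 and 47.8 CPM in RE/Ovx rats, 43.7, 39.9 and 57.3 CPM in NE/Ovx rats and 65.7, 50.8 and 44.6 CPM in Sham rats, and Cox8a was at 40.6, 39.0 and 43.6 CPM, 36.6, 32.2 and 42.4 CPM and 50, 35.7 and 27.7 CPM in the same groups. All groups overlapped for both genes. As a share of the summed FPKM of the pair, Cox6a2 made up 29.0 ± 4.52% in RE/Ovx rats, 44.0 ± 2.27% in NE/Ovx rats and 34.0 ± 14.2% in Sham rats, and Cox8b made up 22.4 ± 8.98%, 43.8 ± 2.03% and 39.4 ± 17.8%. Neither share overlapped between RE/Ovx and NE/Ovx rats, and each gave p = 0.1 in a two-sided exact permutation test (0.4 after Benjamini-Hochberg adjustment over 12 tests), which is the smallest p that 3 rats against 3 allow.

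Skeletal muscle genes moved with both muscle forms. All 32 muscle markers (such as Acta1, Ckm and Myh4) had a negative log2 fold change for RE/Ovx compared with NE/Ovx, with a median of -0.92. Of all tested genes 48.2% were negative. At the study's thresholds 21 of the markers were lower, against 3.15% of all tested genes. The adjusted threshold was passed by 0 markers and by 0% of all tested genes. Their summed level was 9121, 12301 and 8123 CPM in RE/Ovx rats, 21429.9, 17374 and 17503 CPM in NE/Ovx rats and 15281, 6578 and 19596 CPM in Sham rats, and no marker was at 0 in a group. In this sum RE/Ovx rats lay below NE/Ovx rats, as for Cox6a2 and Cox8b, and Sham rat 8 was the lowest of all, as for Cox6a2. Per 1000 CPM of muscle markers, Cox6a2 was at 1.92 ± 0.0755 CPM in RE/Ovx rats, 1.88 ± 0.315 CPM in NE/Ovx rats and 1.99 ± 0.467 CPM in Sham rats, so its groups overlapped on this scale. Cox8b was at 0.767 ± 0.203, 1.0 ± 0.167 and 1.19 ± 0.276 CPM on the same scale, with overlap between RE/Ovx and NE/Ovx rats. With the muscle level as a covariate the log2 fold change for RE/Ovx compared with NE/Ovx was 0.11 for Cox6a2 and -0.14 for Cox8b. The muscle level itself did not overlap, at -0.82 to -0.02 in RE/Ovx rats and 0.33 to 0.60 in NE/Ovx rats. The covariate is thus confounded with the group here, and these values do not separate muscle content from exercise. The bones had been freed of muscle, and the source of the muscle transcripts was not tested.

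**Figure D4:**
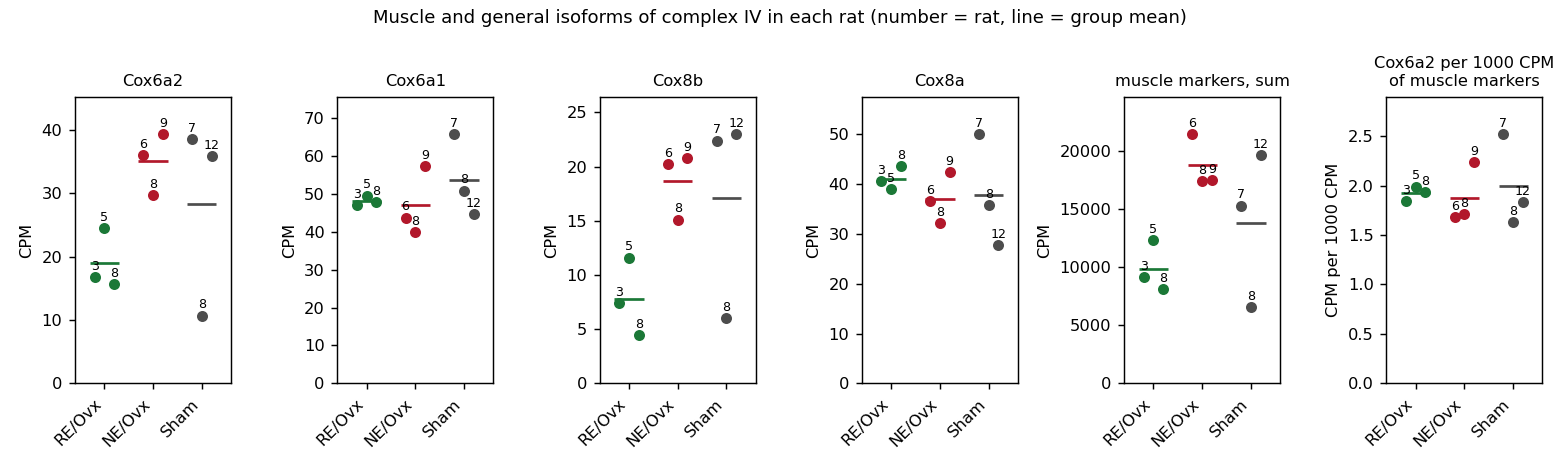
Levels in each rat (CPM) of the muscle forms Cox6a2 and Cox8b, their general partners Cox6a1 and Cox8a, the sum of 32 skeletal muscle markers, and Cox6a2 per 1000 CPM of those markers. Points are rats with their numbers, and lines are group means. RE/Ovx rats and Sham rat 8 are low for Cox6a2, Cox8b and the muscle markers and lie among the others for Cox6a1 and Cox8a. For the ratio the groups overlap, with Sham rat 8 the lowest at 1.63 and NE/Ovx rat 6 next at 1.68.

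Of the rarer forms, Cox4i2, a form of Cox4 known from lung and from low oxygen, was at 3.10, 3.52 and 4.69 CPM in RE/Ovx rats, 2.35, 4.22 and 3.88 CPM in NE/Ovx rats and 1.86, 1.85 and 3.17 CPM in Sham rats. The groups overlapped, with RE/Ovx rat 8 the highest. The log2 fold change was 0.72 (SE 0.33, edgeR adjusted p = 0.201) for RE/Ovx compared with Sham, 0.61 (SE 0.33, edgeR adjusted p = 0.327) for NE/Ovx compared with Sham and 0.11 (SE 0.32, edgeR adjusted p = 0.989) for RE/Ovx compared with NE/Ovx. Its share of the FPKM of Cox4i1 and Cox4i2 was 1.47 ± 0.337% in RE/Ovx rats, 1.25 ± 0.420% in NE/Ovx rats and 0.757 ± 0.312% in Sham rats, without overlap between RE/Ovx and Sham rats (two-sided exact permutation test, p = 0.1, adjusted 0.4). Cox6b2, a form known from testis, was close to the lower limit of measurement with 0.606, 1.07 and 1.41 CPM in RE/Ovx rats, 1.62, 0.761 and 1.03 CPM in NE/Ovx rats and 0.481, 0.242 and 0.916 CPM in Sham rats.

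Complex V makes the ATP. The catalytic core of Atp5a1, Atp5b and Atp5c1 overlapped between all groups. Atp5b was at 670.2, 656 and 562 CPM in RE/Ovx rats, 622, 553 and 756 CPM in NE/Ovx rats and 908, 669 and 717 CPM in Sham rats, with Sham rat 7 and NE/Ovx rat 9 the highest. Atp5a1 was at 358 to 375 CPM, 346 to 444 CPM and 359.9 to 498 CPM in the RE/Ovx, NE/Ovx and Sham groups. Atp5c1, the rotating gamma subunit, was at 56.5 to 60.3, 52.6 to 71.9 and 49.6 to 82.0 CPM, and Atp5d, the delta subunit of the central stalk, was at 42.1, 48.4 and 46.1 CPM in RE/Ovx rats against 47.8, 50 and 62.0 CPM in NE/Ovx rats (log2 fold change -0.23, SE 0.16, edgeR adjusted p = 0.968).

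Atp5g1, Atp5g2 and Atp5g3 encode the same mature subunit c of the proton-driven ring of complex V. Atp5g3 was at 72.6, 75.2 and 65.7 CPM in RE/Ovx rats, 69.0, 66.1 and 84.1 CPM in NE/Ovx rats and 98.3, 92.0 and 82.0 CPM in Sham rats. RE/Ovx rats lay below all Sham rats, and NE/Ovx rat 9 lay above Sham rat 12. Its log2 fold change was -0.35 (SE 0.11, edgeR adjusted p = 0.0859) for RE/Ovx compared with Sham and -0.31 (SE 0.11, edgeR adjusted p = 0.165) for NE/Ovx compared with Sham. Atp5g2 was at 68.4, 64.0 and 70.9 CPM, 65.7, 59.1 and 69.8 CPM and 82.8, 65.0 and 43.3 CPM in the RE/Ovx, NE/Ovx and Sham groups, and Atp5g1 was at 30.1, 29.0 and 29.0 CPM, 30.5, 29.5 and 43.3 CPM and 42.8, 29.7 and 36.6 CPM. For Atp5g2 Sham rat 7 was the highest and Sham rat 12 the lowest of all 9 rats. Per length, the mean over the 9 rats was 105 FPKM for Atp5g2, 102 FPKM for Atp5g3 and 41.4 FPKM for Atp5g1.

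Atp5s and Atp5sl were taken by an older symbol. They are now known as Dmac2l and Dmac2, are not structural subunits of complex V, and Dmac2 acts in complex I assembly. Atp5sl was at 23.9, 23.5 and 23.9 CPM in RE/Ovx rats, 23.7, 18.7 and 21.3 CPM in NE/Ovx rats and 22.6, 17.2 and 15.5 CPM in Sham rats, so that RE/Ovx rats lay above all Sham rats. Its log2 fold change for RE/Ovx compared with Sham was 0.36 (SE 0.15, edgeR adjusted p = 0.159). Atp5s overlapped between groups with 4.69 to 6.59, 5.21 to 6.98 and 5.40 to 7.58 CPM. With these genes and the muscle forms Cox6a2 and Cox8b left out, the median of the remaining 71 members was -0.07 for RE/Ovx compared with NE/Ovx, -0.11 for NE/Ovx compared with Sham and -0.20 for RE/Ovx compared with Sham.

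Other genes of the pathway were counted in lists written by hand, at the adjusted threshold that 8.06% of all tested genes passed for RE/Ovx compared with Sham. Of 9 tested genes that belong to the complexes or regulate them but carry other symbols, 1 passed it and was lower. This was Atpif1, the inhibitor that stops complex V from running backward, with 82.5 ± 8.98 CPM in RE/Ovx rats, 77.6 ± 3.87 CPM in NE/Ovx rats and 115 ± 17.2 CPM in Sham rats. Its log2 fold change was -0.48 (SE 0.12, edgeR adjusted p = 0.0427) for RE/Ovx compared with Sham and -0.57 (SE 0.12, edgeR adjusted p = 0.0577) for NE/Ovx compared with Sham. Of 19 tested regulators of mitochondrial number, 1 passed it and was lower, while 2 were lower at the study's thresholds and 12 had a log2 fold change below 0. This was Prkaa1, a catalytic subunit of AMP-activated kinase, with 129 ± 4.29 CPM in RE/Ovx rats, 131 ± 10.2 CPM in NE/Ovx rats and 173 ± 7.86 CPM in Sham rats. Prkaa1 had -0.43 (SE 0.08, edgeR adjusted p = 0.0193) for RE/Ovx compared with Sham and -0.40 (SE 0.08, edgeR adjusted p = 0.051) for NE/Ovx compared with Sham on the log2 scale. Of 72 tested proteins of the mitochondrial ribosome, 1 passed it and was lower, Mrpl33, with 8.49 ± 1.21 CPM in RE/Ovx rats, 8.55 ± 0.69 CPM in NE/Ovx rats and 13.0 ± 0.636 CPM in Sham rats. The log2 fold change of Mrpl33 was -0.62 (SE 0.15, edgeR adjusted p = 0.0361) for RE/Ovx compared with Sham and -0.61 (SE 0.15, edgeR adjusted p = 0.0751) for NE/Ovx compared with Sham. For all 3 genes both ovariectomized groups lay below all Sham rats.

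None of 41 tested assembly factors, 17 citrate cycle genes and 9 carriers passed the adjusted threshold in edgeR in any comparison. At an unadjusted p under 0.05 there were 3, 0 and 1 of them for RE/Ovx compared with Sham, against 25.6% of all tested genes, and 5, 0 and 0 for NE/Ovx compared with Sham, against 20.5%. For RE/Ovx compared with NE/Ovx there were 0, 0 and 3, against 5.28% of all tested genes. Slc25a4, the ADP and ATP carrier form of heart and muscle, was at 115 ± 16.3 CPM in RE/Ovx rats and 179 ± 20.1 CPM in NE/Ovx rats (log2 fold change -0.65, SE 0.26, edgeR adjusted p = 0.924). The median log2 fold change of the mitochondrial ribosome was -0.11 for NE/Ovx compared with Sham, with 57 of 72 (79.2%) negative against 49.6% of all tested genes. For RE/Ovx compared with NE/Ovx it was 0.07, with 22 of 72 (30.6%) negative against 48.2%. For RE/Ovx compared with Sham it was -0.07, with 45 of 72 (62.5%) negative against 51.1%. The mean centred level of the mitochondrial ribosome was -0.05, -0.17 and 0.04 in NE/Ovx rats and 0.27, -0.04 and -0.08 in Sham rats. Sham rat 7 was the highest and NE/Ovx rat 8 the lowest of all 9 rats. Sham rats 8 and 12 and all RE/Ovx rats lay within the range of NE/Ovx rats. The median of the citrate cycle for RE/Ovx compared with NE/Ovx was -0.07.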

How the data were processed

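For each of the 9 rats the authors deposited 2 values per gene, a whole-number read count and an FPKM. The tools that the submitters' processing notes list are Trimmomatic, HISAT2, StringTie, Bowtie2 and DESeq, with the build Rnor_6.0. Their versions, the gene annotation, the handling of strand in counting, and the handling of reads shared between copies are not given in the sources used here.

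A single edgeR 4.0.16 model in R 4.3.3 covered all 9 libraries, with 1 term for the group (filterByExpr, TMM factors from 0.962 to 1.042, quasi-likelihood test). Benjamini-Hochberg adjustment ran over all 14520 tested genes. The study's methods name DESeq2 and give no formula, so DESeq2 1.42.0 was an alternative. The others were limma 3.58.1 on log2(FPKM + 1) or log2(FPKM + 0.1), a minimum FPKM of 1 in 3 libraries, other scalings and count filters, a model of the 2 groups compared, the level of skeletal muscle markers as a covariate, and leaving out each rat. Centred levels used log2 CPM with a prior count of 2. Isoform shares were compared over rats by exact permutation tests. No pair of libraries agreed within sampling noise. The p values of the fits weigh a group difference against the variation between these rats.

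Members and gene lists were chosen with earlier results of these data known. Members named with values were those past the adjusted threshold, those with the smallest p per complex and comparison (up to 3 past the study's thresholds, otherwise 1), isoform families, core subunits, and the highest and lowest of each complex. Ndufa1, Ndufs6, Ndufa4, Atp5s and members named for groups without overlap were added after their values were seen. The individual values of 1 member are not reported here. Of the 78 members, 61 matched the RefSeq table of GRCr8 by symbol and 17 by synonym. Promoter sequences are RefSeq's on GRCr8, a later build than that of the counts. In a simulation of RE/Ovx compared with Sham (14398 genes), the share of changed genes that edgeR found was 17.9% at 1.5-fold, 56.7% at 2-fold and 93.9% at 4-fold. The changed genes were drawn from all tested genes, so these shares are not those of the members. Figures were drawn with matplotlib 3.10.9 in Python 3.11.15.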

Additional observations from a re-analysis of the deposited data

How the results depend on the processing

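No paired analysis was possible because the groups share at most 1 replicate number, 8, and no label says that a number marks a shared batch. For NE/Ovx compared with Sham, 1 member passed the adjusted threshold with DESeq2 on the 9 libraries, against 998 of 14520 genes in that fit. With the muscle covariate 6 members passed the study's thresholds. For RE/Ovx compared with NE/Ovx, DESeq2 on the 2 groups called 2, against 151 of 18170 genes in that fit. The muscle covariate left 0 at the study's thresholds, and it gave medians of 0.08 for complex II and 0.08 for complex III. The muscle level did not overlap between these groups, so the covariate is confounded with the group in this comparison. For RE/Ovx compared with Sham, 0 passed the adjusted threshold with edgeR on the 2 groups, with each of the 3 limma fits and with the muscle covariate, and 5 and 3 passed the study's thresholds with limma and with the covariate. Leaving out each rat gave 1 to 11 members at the study's thresholds for NE/Ovx compared with Sham, 0 to 3 for RE/Ovx compared with NE/Ovx and 4 to 19 for RE/Ovx compared with Sham, with 0 to 2 at the adjusted threshold, and the median of complex IV then ran from -0.35 to 0.00 (RE/Ovx compared with Sham). The shares of all genes at the study's thresholds are not given for these fits. With the covariate Cox8b had -0.13 for NE/Ovx compared with Sham, and Cox6a2 had 0.11 for RE/Ovx compared with NE/Ovx and 0.20 for RE/Ovx compared with Sham. Without single rats Cox8b ran from -0.28 to 0.37 and Cox6a2 from -0.10 to 0.58 for NE/Ovx compared with Sham, and Cox4i2 from -0.10 to 0.27 for RE/Ovx compared with NE/Ovx. The values above on single members come from the 27 fold changes tabulated. In the 99 other pairs of a named member and a comparison, 66 changed sign under at least 1 alternative, 35 of them without any rat being left out, and 0 changed its side of the adjusted threshold, so the sign of a small fold change of a single member was not stable. Shares in points ran from -12.9 to 0.897 for Cox6a2 (RE/Ovx compared with Sham) and from -4.80 to 12.9 for Cox8b (NE/Ovx compared with Sham). Those of Cox7a1, which rest on 2 counts, ran from -0.0191 to 0.00 (NE/Ovx compared with Sham), from 0.00 to 0.0175 (RE/Ovx compared with NE/Ovx) and from -0.0127 to 0.0117 (RE/Ovx compared with Sham). The cause of these moves was not tested, apart from the fewer rats in the fits that left one out. With 3 rats a group, most changes of 1.5-fold were missed on simulated counts, where the changed genes were drawn from all tested genes. Recovery among the members alone, which had a higher median FPKM, was not measured. Most fold changes of the members were smaller than 1.5-fold. A cell type with less RNA and one with fewer cells cannot be told apart, and reads shared with pseudogene copies may enter or leave the counts of 37 members.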
